A study of Mus musculus with 13 samples.

Results

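The 52 genes described here carry out or regulate the duplication of DNA in S phase. They are the rows of the deposited count table whose gene name is on a list of replication and S phase genes. This makes 52 of the 56748 genes in the table. The rule uses no measured value, but the list was chosen with earlier results of these data known. Here they are arranged in 8 roles: origin licensing (10 genes), helicase activation (6), primase and polymerases (7), clamp, clamp loader and lagging strand (9), nucleotide supply (4), chromatin assembly (2), E2F factors and cyclin E (6), and checkpoint, fork and repair (8). All 52 passed the filter on low counts, as did 14059 genes in all. The study asks what the T-box factor Eomes does in CD4+ T helper cells of tumour-bearing mice treated with an antibody that activates the receptor 4-1BB. RNA was taken from spleen CD4+ T cells sorted as TCR+ and Thy1.1-negative, in 13 libraries of 5 groups. Every mouse, of both lines, carried a Foxp3-Thy1.1 reporter, so that the sort for Thy1.1-negative cells leaves regulatory T cells out, and every mouse received 50 µg of an NK1.1-depleting antibody on days -2 and 5 and Vk12653 myeloma cells on day 0. The 4-1BB agonist antibody or control IgG was given at 20 µg on days 10, 13 and 16, and spleens were taken on day 18. Treated Eomes-GFP mice gave a GFP+ and a GFP- fraction (3 libraries each), Eomes-GFP mice given IgG gave 2 libraries not divided by GFP, Eomes-TKO mice given the 4-1BB antibody gave 2, and Eomes-TKO mice given IgG gave 3. The position of the GFP gates, the ages of the mice and the way the Eomes-TKO line was made are not given in the sources used here.

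A cell that is about to divide first loads the MCM helicase onto its origins, and then fires those origins in S phase, when polymerases copy both strands while enzymes supply nucleotides and histone chaperones rebuild chromatin behind the fork. Most genes of this machinery are targets of the E2F transcription factors, which the retinoblastoma proteins hold back in resting cells. Naive and resting T cells keep them low, and antigen or costimulation that drives T cells to expand switches them on.

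Eomes, the gene behind the sort and the knockout, had levels of 570.3, 705.9 and 684.8 CPM, the counts scaled to a fixed library total, in the 3 GFP+ libraries. GFP- libraries had 1.83 to 3.54 CPM of it. It was at 14.0 and 16.8 CPM in the Eomes-GFP IgG libraries and at 1.36 to 8.03 CPM in the 5 Eomes-TKO libraries. Library totals ran from 6080975 to 10881146 estimated counts, so that 3 counts, the most that a listed 0 allows, correspond to 0.271 to 0.468 CPM. Foxp3, the regulatory T cell factor, lay between 0.393 and 2.65 CPM in all 13 libraries, while Ikzf2, a transcription factor found in many regulatory T cells, differed by group and is given with the other marker genes. The 8 T cell identity genes summed to at least 3099 CPM in each. Of the 52 genes, 17 share exon bases with a gene on the opposite strand in GENCODE M21, and reads of such pairs cannot be told apart here, since the strand setting of the counting is not given in the sources used here. CPM values here are scaled by TMM normalization factors and are not divided by gene length, so they compare 1 gene across libraries and not 1 gene with another. The libraries are bulk RNA, so fewer cells in S phase and less of an RNA per cell cannot be told apart. P-values rest on the spread between libraries within groups, estimated in 1 fit over all 5 groups and drawn partly from other genes. The libraries are separate samples in the labels but are not said there to be separate mice.

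Promoters of the listed genes were searched for the letters of E2F sites, since that is the sequence feature these genes are known to share. RefSeq windows of 250 bases before to 50 bases after the start were at hand for 43 of the 52 genes (build GRCm38.p6, while the submitters' processing notes name GRCm39 for the reads). The E2F letters searched, on both strands and with overlapping matches counted, were TTTCCCGC, TTTGGCGC, TTTCGCGC and TTTGCCGC. At least 1 of them stood in the windows of 19 of 43 listed genes (44.2%), against 704 of all 27025 genes with such a window (2.60%). Those 27025 were not limited to genes counted or tested here. Only exact matches to the letters were counted, so a window without a match can hold a sequence that differs by 1 base. The windows of 5 genes are shown as the 120 bases just before the start. Mcm6 is shown because it holds the most E2F matches of the list, 3, and changed more than its partners, Dtl because it had the smallest p of its role, Orc1 and Gins3 because they hold a match and did not pass the test between GFP+ and GFP- cells, and Rpa2 because it had the smallest p of the list with none of these E2F letters. Capitals mark E2F letters on either strand in the first 4 sequences and the CCAAT box, also on either strand, in that of Rpa2.
Mcm6, chr1:128359706-128359825, minus strand: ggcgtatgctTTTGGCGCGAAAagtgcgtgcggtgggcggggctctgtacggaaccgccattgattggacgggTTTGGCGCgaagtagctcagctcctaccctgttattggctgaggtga
Dtl, chr1:191575545-191575664, minus strand: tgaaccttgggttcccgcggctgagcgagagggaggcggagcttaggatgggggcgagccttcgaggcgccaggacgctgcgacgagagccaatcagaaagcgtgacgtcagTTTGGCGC
Orc1, chr4:108579334-108579453, plus strand: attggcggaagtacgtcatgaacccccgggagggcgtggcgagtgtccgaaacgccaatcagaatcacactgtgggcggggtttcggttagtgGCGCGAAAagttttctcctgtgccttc
Gins3, chr8:95633439-95633558, plus strand: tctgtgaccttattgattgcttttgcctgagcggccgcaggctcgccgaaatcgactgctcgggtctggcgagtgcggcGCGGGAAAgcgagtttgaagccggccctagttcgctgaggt
Rpa2, chr4:132768240-132768359, plus strand: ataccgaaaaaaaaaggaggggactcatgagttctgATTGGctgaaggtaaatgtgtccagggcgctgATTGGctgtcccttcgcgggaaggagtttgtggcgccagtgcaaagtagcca

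By role, the E2F letters were found for 7 of 9 licensing genes, 3 of 5 primase and polymerase genes, 4 of 7 checkpoint, fork and repair genes, 2 of 5 E2F and cyclin E genes, 2 of 8 clamp and lagging strand genes, 1 of 3 helicase activation genes, and none of the 4 nucleotide supply or 2 chromatin assembly genes. The cell cycle homology region of mitotic promoters (TTTGAA or TTCGAA) was in 8 of 43 windows of the listed genes (18.6%), near the 21.7% of all genes with a window. It was in 21 of 26 windows of a list of G2 and mitosis genes (80.8%). CCAAT was in 27 of 43 (62.8%) against 41.1% of all genes with a window. The match is a description of letters: of the 41 listed genes that were higher in GFP+ than in GFP- cells, 35 had a window and 15 of those an E2F match, and of the 11 that did not pass the test, 8 had a window and 4 a match.

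Across the 5 groups, the mean log2 CPM over the 52 genes was highest in the treated GFP+ cells and lowest in the 2 groups given IgG. It was 5.01, 5.16 and 4.74 in GFP+ cells, 4.07, 4.01 and 3.93 in GFP- cells, 3.51 and 3.98 in treated Eomes-TKO cells, 3.19 and 3.39 in Eomes-GFP cells given IgG and 3.18, 3.44 and 3.22 in Eomes-TKO cells given IgG. All 3 GFP+ libraries lay above all other libraries, all 3 GFP- libraries lay above the 5 IgG libraries, and the 2 treated Eomes-TKO libraries lay apart from each other, 1 close to the IgG libraries and 1 close to the GFP- libraries. As group means, the order was GFP+ (4.97 ± 0.21, SD, n = 3), GFP- (4.00 ± 0.07, n = 3), treated Eomes-TKO (3.75 on average, n = 2), Eomes-GFP IgG (3.29, n = 2) and Eomes-TKO IgG (3.28, n = 3). Neighbours from GFP- to treated Eomes-TKO and between the 2 IgG groups were within the spread of their libraries or overlapped. Gene by gene, GFP+ cells had the highest group mean for 50 of the 52 genes and GFP- cells the second highest for 41. The 2 exceptions, with their highest mean in treated Eomes-TKO cells, are named with their roles below. Matching shares over all tested genes are not given here.

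**Figure D1:**
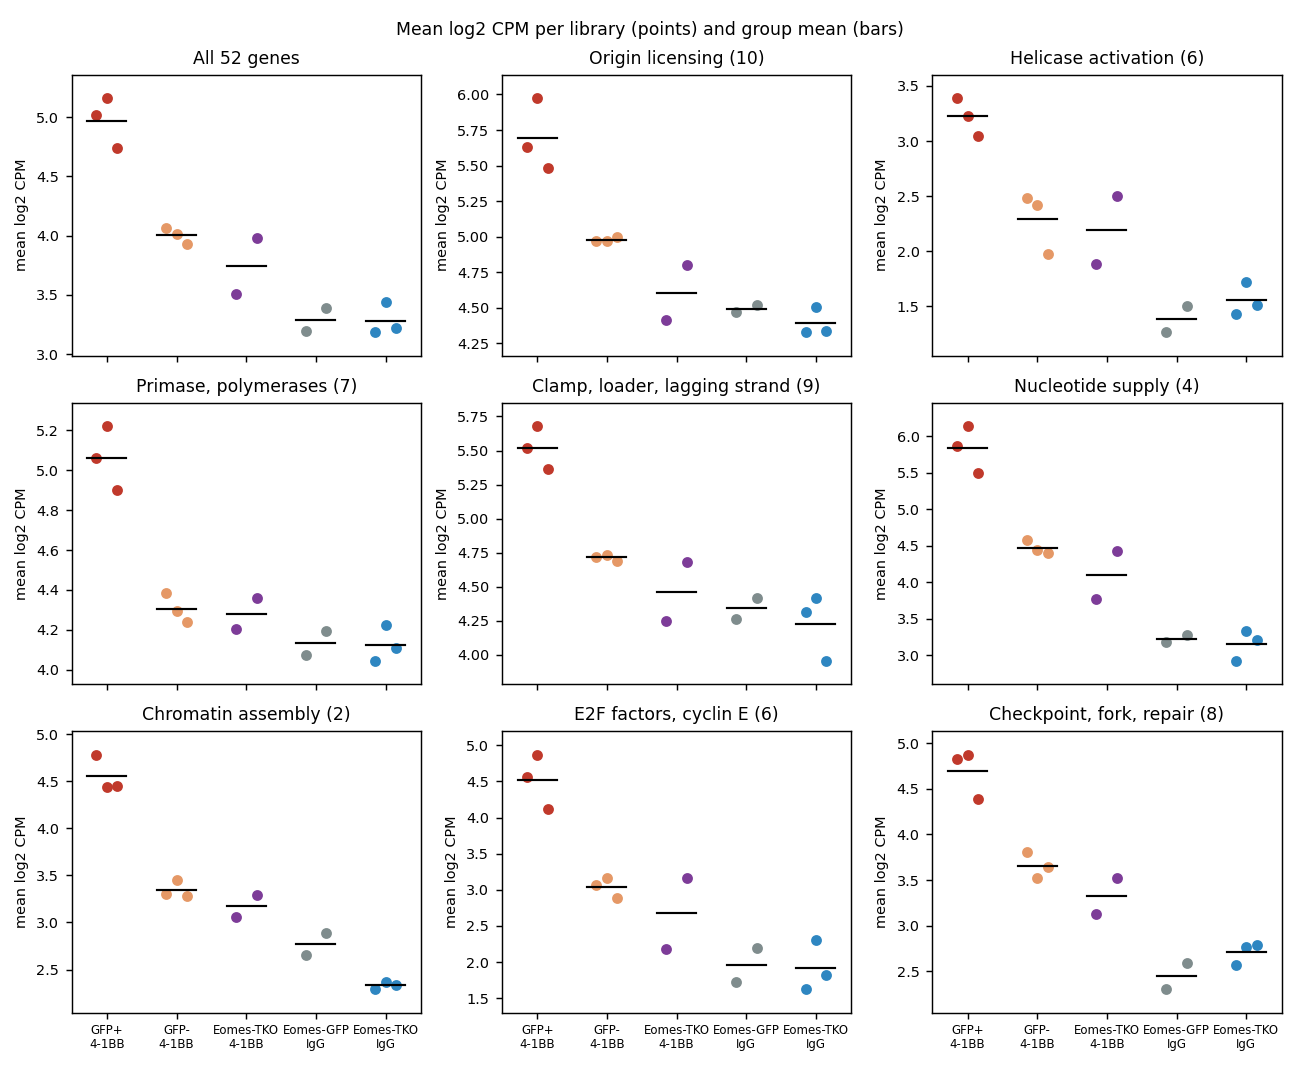
Mean log2 CPM per library (points, vertical axis) with the group mean (bar), for all 52 genes and for each of the 8 roles, in the 5 groups (horizontal axis). The vertical axes do not start at 0 and differ between panels; in the panel of all genes the GFP+ libraries sit at 4.74 to 5.16 and the IgG libraries at 3.18 to 3.44.

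The comparison of the sort, GFP+ against GFP- cells from mice given the 4-1BB antibody, asks whether cells with Eomes differ from cells without it in replication genes. Of the 52 genes, 41 were higher in GFP+ cells, none was lower and 11 did not pass the test (edgeR's quasi-likelihood test, Benjamini-Hochberg adjusted p at or below 0.05, called here and below). Over all 14059 tested genes, the shares to set beside these counts and those by role below, 20.7% were called higher and 16.5% lower. Of these calls 55.7% were higher, or 41.4% when libraries were scaled by their upper quartile, which left 37 of the 52 genes called higher and none lower. All 52 fold changes were above 0, with a median of 0.97 on the log2 scale, a range from 0.17 (Pcna) to 2.12 (E2f7), and a median over all tested genes of 0.02. For 47 of the 52 every GFP+ library lay above every GFP- library, against 27.6% of all tested genes. The 5 genes whose libraries overlapped were Orc6, Gins2, Pold1, Pole2 and Pcna. Without the second GFP+ library, 33 genes were called and the median was 0.78.

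**Figure D2:**
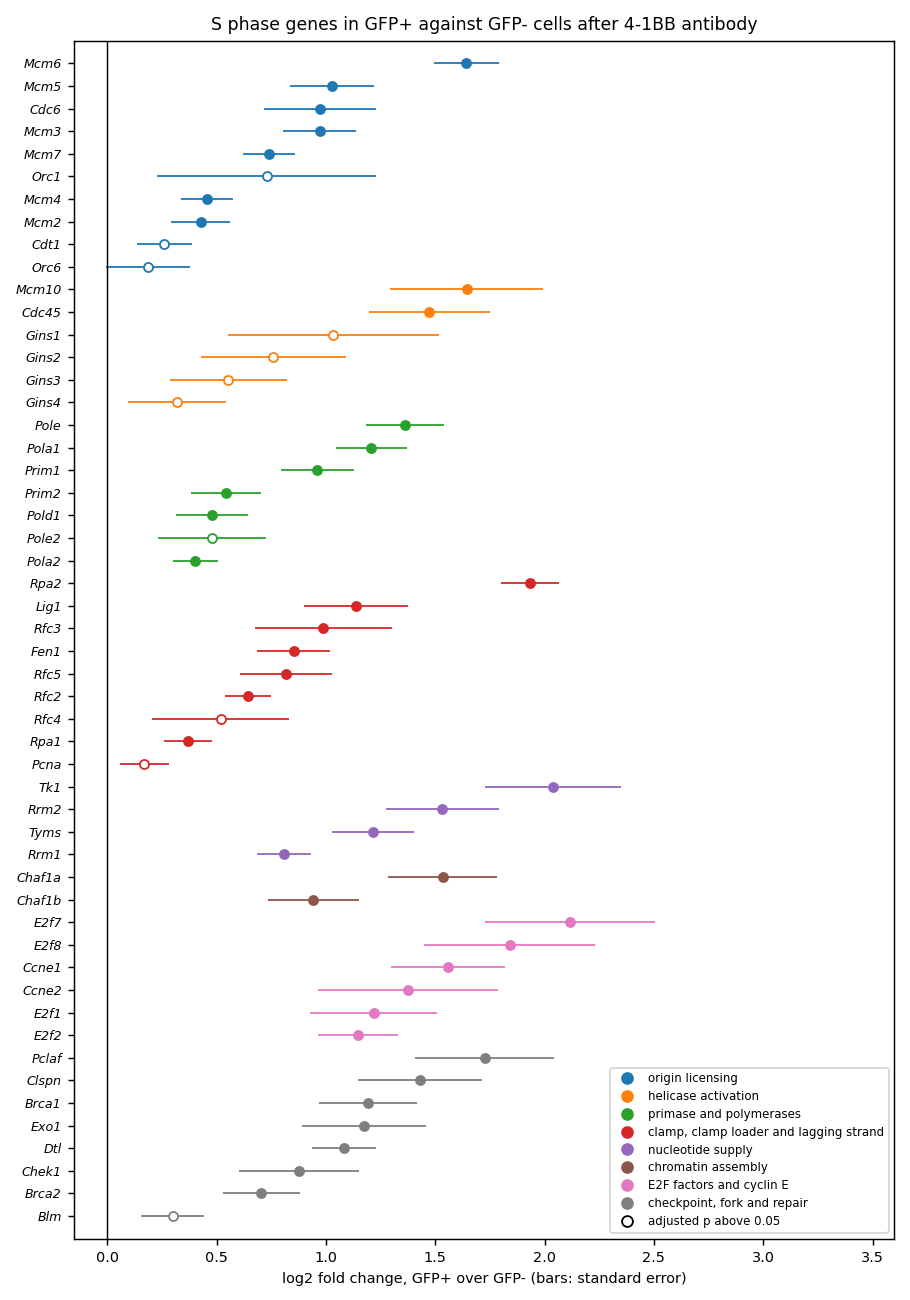
Log2 fold change of GFP+ over GFP- cells (horizontal axis) for each of the 52 genes (vertical axis), with its standard error as a bar, coloured by role and sorted within it. Filled points passed the test (41) and open points did not (11); all points lie to the right of 0.

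Among the licensing genes, which place the MCM helicase on origins, 7 of 10 were higher in GFP+ cells and 3 did not pass the test. Mcm6, a subunit of the MCM ring, stood at 247, 305 and 247 CPM in GFP+ cells, 79.6, 90.4 and 86.1 in GFP- cells, 65.0 and 95.5 in treated Eomes-TKO, 68.0 and 67.8 in Eomes-GFP IgG and 68.4, 72.8 and 52.2 in Eomes-TKO IgG. Its GFP+ libraries were far above the other 10. The log2 fold change between GFP+ and GFP- cells was 1.64 ± 0.15 (SE, adjusted p = 9.36e-07). Mcm7, another subunit of the ring, stood at 92.2, 113 and 83.4 CPM in GFP+ cells, 59.3, 55.0 and 58.4 in GFP- cells, 54.2 and 66.5 in treated Eomes-TKO, 57.7 and 59.6 in Eomes-GFP IgG and 52.7, 58.4 and 55.7 in Eomes-TKO IgG. Here too the GFP+ libraries lay above all others, by less, and the other 4 groups overlapped. Its log2 fold change was 0.74 ± 0.12 (SE, adjusted p = 0.000220). Mcm5 (1.03), Mcm3 (0.97), Cdc6, the loading ATPase (0.97), Mcm4 (0.46) and Mcm2 (0.43) were also higher. The genes that did not pass were Orc1, the large subunit of the origin recognition complex, at 0.73 ± 0.50, Cdt1, which brings MCM to the origin, at 0.26 ± 0.13, and Orc6 at 0.19 ± 0.19 (SE). Orc1 was among the lowest genes of the list in counts, at 3.19, 4.06 and 2.04 CPM in GFP+ and 1.95, 1.71 and 1.90 in GFP- cells, and its libraries did not overlap.

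In the helicase activation role, whose products turn loaded MCM into the moving helicase, 2 of 6 genes were higher and 4 did not pass. Of all tested genes, 20.7% were called higher. Cdc45, a partner of MCM in the active helicase, stood at 17.2, 18.6 and 12.03 CPM in GFP+ cells, 7.07, 5.36 and 4.79 in GFP- cells, 2.97 and 5.63 in treated Eomes-TKO, 2.03 and 2.06 in Eomes-GFP IgG and 2.19, 3.25 and 2.26 in Eomes-TKO IgG. Levels fell into 3 steps, with GFP+ cells on top, the GFP- and 1 of the treated Eomes-TKO libraries next and the rest at the bottom. The log2 fold change of GFP+ over GFP- cells was 1.47 ± 0.28 (SE, adjusted p = 0.000749). Mcm10, which helps the helicase to start, was at 15.9, 16.8 and 13.5 CPM in GFP+ cells, 5.85, 6.46 and 2.62 in GFP- cells, 2.50 and 5.21 in treated Eomes-TKO, 1.02 and 1.47 in Eomes-GFP IgG and 1.15, 2.47 and 1.73 in Eomes-TKO IgG. All 3 GFP+ libraries were well above the highest of the rest, a GFP- library. Its log2 fold change was 1.64 ± 0.35 (SE, adjusted p = 0.00194). The 4 GINS subunits, which complete the same helicase, were at 1.03 ± 0.48 (Gins1), 0.76 ± 0.33 (Gins2), 0.55 ± 0.27 (Gins3) and 0.32 ± 0.22 (Gins4), all positive and none past the threshold. Gins1 and Gins2 were at or below 6.38 CPM in all libraries, where the counting error is large. Gins2 also shares 2758 exon bases with Gse1 on the opposite strand, a gene with 2689 counts on average in GFP+ libraries against 37.7 for Gins2 itself.

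Primase and polymerase genes were higher in 6 of 7 cases. Pole, the catalytic subunit of the leading strand polymerase, stood at 44.3, 52.1 and 37.8 CPM in GFP+ cells, 16.7, 19.9 and 15.7 in GFP- cells, 14.8 and 16.8 in treated Eomes-TKO, 9.41 and 11.1 in Eomes-GFP IgG and 9.17, 13.6 and 13.3 in Eomes-TKO IgG. Each GFP+ library was well above every other library. The log2 fold change was 1.36 ± 0.18 (SE, adjusted p = 3.02e-05). Pola1, the catalytic subunit of the polymerase that extends primers, stood at 62.2, 44.5 and 56.1 CPM in GFP+ cells, 26.6, 23.9 and 20.1 in GFP- cells, 17.0 and 24.0 in treated Eomes-TKO, 14.0 and 16.0 in Eomes-GFP IgG and 14.5, 15.3 and 14.3 in Eomes-TKO IgG. Again no library of another group reached the lowest GFP+ library, and its fold change was 1.21 ± 0.16 (SE, adjusted p = 4.31e-05). The primase subunits Prim1 (0.96) and Prim2 (0.54), the lagging strand polymerase gene Pold1 (0.48) and the accessory subunit Pola2 (0.40) were higher by less. Pole2, the accessory subunit of Pole, was at 0.48 ± 0.25 and did not pass. It is 1 of the 2 genes whose highest group mean was in treated Eomes-TKO cells, where it stood at 11.2 and 13.1 CPM, against 8.87, 16.1 and 9.13 in GFP+ cells.

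In the role of the clamp, its loader and the lagging strand, 7 of 9 genes were higher. Rpa2, the middle subunit of the protein that coats single-stranded DNA, had the smallest p of the 52. Rpa2 levels were 67.8, 82.0 and 67.6 CPM in GFP+ cells, 17.7, 19.6 and 19.5 in GFP- cells, 14.2 and 16.0 in treated Eomes-TKO, 12.2 and 14.2 in Eomes-GFP IgG and 14.6, 13.3 and 12.4 in Eomes-TKO IgG. The 3 GFP+ libraries stood far above the other 10, which were between 12.2 and 19.6 CPM. The log2 fold change was 1.93 ± 0.13 (SE, adjusted p = 4.37e-08). Rfc2, a clamp loader subunit, stood at 49.8, 50.3 and 44.9 CPM in GFP+ cells, 31.3, 31.6 and 29.8 in GFP- cells, 30.3 and 30.1 in treated Eomes-TKO, 29.8 and 31.2 in Eomes-GFP IgG and 30.5, 32.2 and 29.9 in Eomes-TKO IgG. Its 10 libraries outside the GFP+ group were nearly level, and the fold change was 0.64 ± 0.10 (SE, adjusted p = 0.000206). Lig1, the ligase that seals lagging strand fragments (1.14), the loader subunits Rfc3 (0.99) and Rfc5 (0.82), the flap endonuclease Fen1 (0.85) and the large subunit Rpa1 (0.37) were higher as well. Rfc4 was at 0.52 ± 0.31 and did not pass, with an exon overlap of 194 bases with the abundant Eif4a2 on the opposite strand. Pcna, the sliding clamp and a common marker of proliferating cells, did not pass either. Pcna levels were 176, 211 and 157 CPM in GFP+ cells, 156, 153 and 174 in GFP- cells, 117 and 130.3 in treated Eomes-TKO, 136 and 122 in Eomes-GFP IgG and 118, 133 and 116 in Eomes-TKO IgG, and its fold change was 0.17 ± 0.11 (SE, adjusted p = 0.257). In this gene the GFP+ and GFP- libraries overlapped, and both lay above the IgG libraries in all 6 cases. A copy listed as Pcna-ps2 had 13.5 counts per library on average.

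All 4 nucleotide supply genes were higher in GFP+ cells. Tk1, the thymidine kinase of the salvage pathway, stood at 25.9, 39.1 and 20.8 CPM in GFP+ cells, 7.93, 6.94 and 6.05 in GFP- cells, 4.37 and 6.67 in treated Eomes-TKO, 1.53 and 2.45 in Eomes-GFP IgG and 0.834, 2.47 and 2.13 in Eomes-TKO IgG. The range from the lowest to the highest library was wide in this gene, with the first Eomes-TKO IgG library lowest and the second GFP+ library on top. Its log2 fold change was 2.04 ± 0.31 (SE, adjusted p = 0.000132), and 83 of its exon bases are shared with Afmid on the opposite strand, which had 246.5 counts on average in GFP+ and 122.2 in GFP- libraries. Rrm1, the large subunit of ribonucleotide reductase, stood at 146, 149 and 119.6 CPM in GFP+ cells, 87.0, 75.4 and 74.5 in GFP- cells, 58.6 and 75.3 in treated Eomes-TKO, 55.3 and 50.0 in Eomes-GFP IgG and 57.6, 48.0 and 55.7 in Eomes-TKO IgG. GFP+ libraries were highest, GFP- and the second treated Eomes-TKO library came next and the IgG libraries were lowest. The fold change was 0.81 ± 0.12 (SE, adjusted p = 0.000141). Rrm2, the regulated small subunit (1.53), and Tyms, thymidylate synthase (1.22), were higher by more than Rrm1.

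Both genes of chromatin assembly factor 1, which places histones on new DNA, were higher. Chaf1a stood at 28.1, 23.6 and 21.1 CPM in GFP+ cells, 9.03, 8.89 and 7.23 in GFP- cells, 4.53 and 7.61 in treated Eomes-TKO, 3.31 and 4.60 in Eomes-GFP IgG and 2.29, 3.35 and 1.73 in Eomes-TKO IgG. Every GFP+ library was above every other library, and the first treated Eomes-TKO library was level with the higher Eomes-GFP IgG library. The log2 fold change was 1.53 ± 0.25 (SE, adjusted p = 0.000214), in a gene that shares 4648 exon bases with Ubxn6 on the opposite strand, whose counts were 384.0 on average in GFP+ and 458.3 in GFP- libraries. Chaf1b stood at 26.5, 19.5 and 22.3 CPM in GFP+ cells, 10.2, 12.8 and 12.5 in GFP- cells, 14.4 and 11.99 in treated Eomes-TKO, 10.9 and 11.2 in Eomes-GFP IgG and 9.28, 7.20 and 12.9 in Eomes-TKO IgG. Outside the GFP+ group its libraries overlapped, with no step between treated and IgG cells, and its fold change between GFP+ and GFP- cells was 0.94 ± 0.21 (SE, adjusted p = 0.00255).

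All 6 E2F and cyclin E genes were higher. E2f2, an activating E2F, stood at 101, 156 and 88.3 CPM in GFP+ cells, 52.1, 48.6 and 55.0 in GFP- cells, 37.3 and 47.1 in treated Eomes-TKO, 31.2 and 34.3 in Eomes-GFP IgG and 26.5, 35.5 and 30.4 in Eomes-TKO IgG. The 3 GFP+ libraries were on top, and GFP- cells lay above all IgG libraries. Its log2 fold change was 1.15 ± 0.18 (SE, adjusted p = 0.000217). Ccne1, a cyclin that drives entry into S phase, stood at 15.1, 19.0 and 16.7 CPM in GFP+ cells, 6.10, 5.60 and 5.51 in GFP- cells, 2.97 and 6.78 in treated Eomes-TKO, 4.71 and 3.43 in Eomes-GFP IgG and 3.23, 4.04 and 3.19 in Eomes-TKO IgG. All other libraries were far below the GFP+ libraries, and the 3 GFP- libraries lay above all 5 IgG libraries. The fold change was 1.56 ± 0.26 (SE, adjusted p = 0.000307). E2f7 (2.12) and E2f8 (1.84), E2Fs that repress their targets, had larger fold changes than E2f1 (1.22) and E2f2, and Ccne2 was at 1.37. E2f8 shares 610 exon bases with Gm2788 on the opposite strand, which had 44.0 counts on average in GFP+ and 0.333 in GFP- libraries against 301.0 and 96.0 for E2f8. Whether the order of these fold changes exceeds their errors was not tested.

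Of the checkpoint, fork and repair genes, 7 of 8 were higher. Dtl, part of the ubiquitin ligase that removes Cdt1 in S phase, stood at 80.2, 81.7 and 64.1 CPM in GFP+ cells, 40.98, 30.6 and 35.0 in GFP- cells, 30.1 and 24.7 in treated Eomes-TKO, 25.9 and 24.1 in Eomes-GFP IgG and 20.0, 20.1 and 25.6 in Eomes-TKO IgG. The lowest GFP+ library was above the highest of the others, a GFP- library. The log2 fold change was 1.08 ± 0.15 (SE, adjusted p = 4.84e-05). Brca1, a homologous recombination gene, stood at 28.1, 27.6 and 18.1 CPM in GFP+ cells, 11.5, 11.0 and 9.85 in GFP- cells, 9.37 and 10.5 in treated Eomes-TKO, 4.45 and 5.09 in Eomes-GFP IgG and 4.17, 6.71 and 7.17 in Eomes-TKO IgG. Its GFP- and treated Eomes-TKO libraries lay together between GFP+ and IgG, and its fold change was 1.19 ± 0.22 (SE, adjusted p = 0.000731). Pclaf, a partner of the clamp (1.73), Clspn, the adaptor of the replication checkpoint (1.43), the exonuclease Exo1 (1.17), the checkpoint kinase Chek1 (0.88) and Brca2 (0.71) were higher too. The helicase gene Blm was at 0.30 ± 0.15 and did not pass. Blm is the other gene with a highest group mean outside GFP+ cells, at 20.9 and 22.2 CPM in treated Eomes-TKO cells against 22.2, 22.4 and 19.7 in GFP+ cells.

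**Figure D3:**
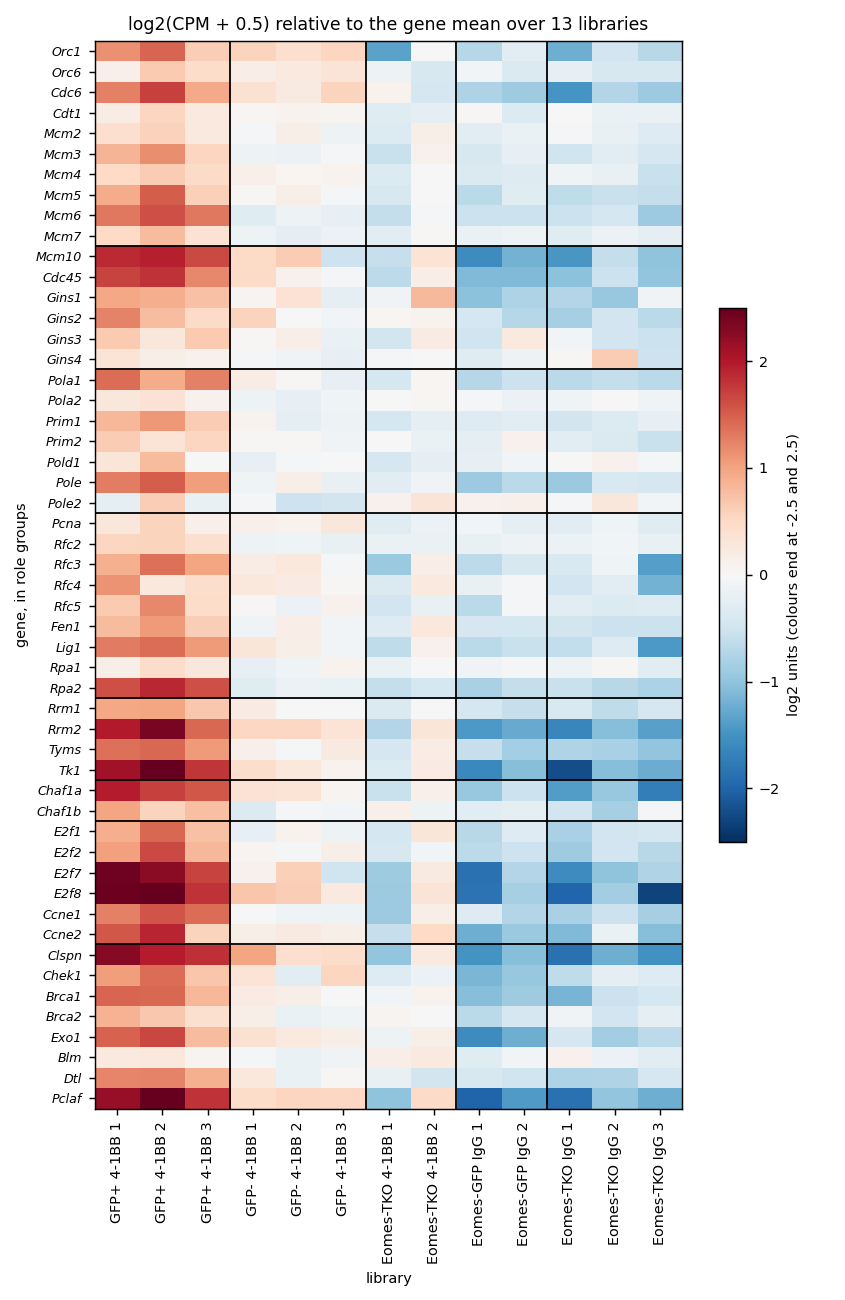
Heat map of log2(CPM + 0.5) of the 52 genes (rows, in role order with lines between roles) in the 13 libraries (columns, in group order), each relative to the gene's mean over the 13 libraries. Colours end at -2.5 and 2.5; the 3 GFP+ columns are red for nearly all genes, and the treated Eomes-TKO columns differ from each other.

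Subunits of the same complex had fold changes of different sizes. Mcm6 relative to the geometric mean of Mcm2, Mcm3, Mcm4, Mcm5 and Mcm7 was at 1.25, 1.25 and 1.44 on the log2 scale in GFP+ libraries and between 0.08 and 0.47 in the other 10 libraries. The GFP+ values were above all others, by 0.93 on average over GFP- cells. Rpa2 relative to Rpa1 was at -1.36, -1.39 and -1.51 in GFP+ libraries and between -3.60 and -2.90 in the other 10. That difference from GFP- cells was 1.56 on the log2 scale. Pole over Pole2 differed by 0.92 and Pola1 over Pola2 by 0.80 between GFP+ and GFP- cells. Pole over Pole2 was at 0.74, 1.49 and 1.09 in GFP- libraries and between -0.25 and 0.43 in the treated Eomes-TKO and IgG libraries. Rpa2 over Rpa1 was likewise higher in GFP- libraries (-3.09 to -2.90) than in the treated Eomes-TKO and IgG libraries (-3.60 to -3.28). For Pola1 over Pola2 the GFP- libraries (-1.11 to -0.68) overlapped the treated Eomes-TKO and IgG libraries (-1.69 to -0.997). These 4 ratios were chosen after the values had been seen, so they describe these libraries and the tests on them support nothing further. An exact permutation test of GFP+ against GFP- libraries, 2-sided, gave p = 0.1 for each ratio, before and after Benjamini-Hochberg adjustment over the 4, which is the smallest that 3 against 3 libraries can give. In the other 4 groups the ratios of Mcm6 and of Rpa2 each covered a range of less than 1.

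**Figure D4:**
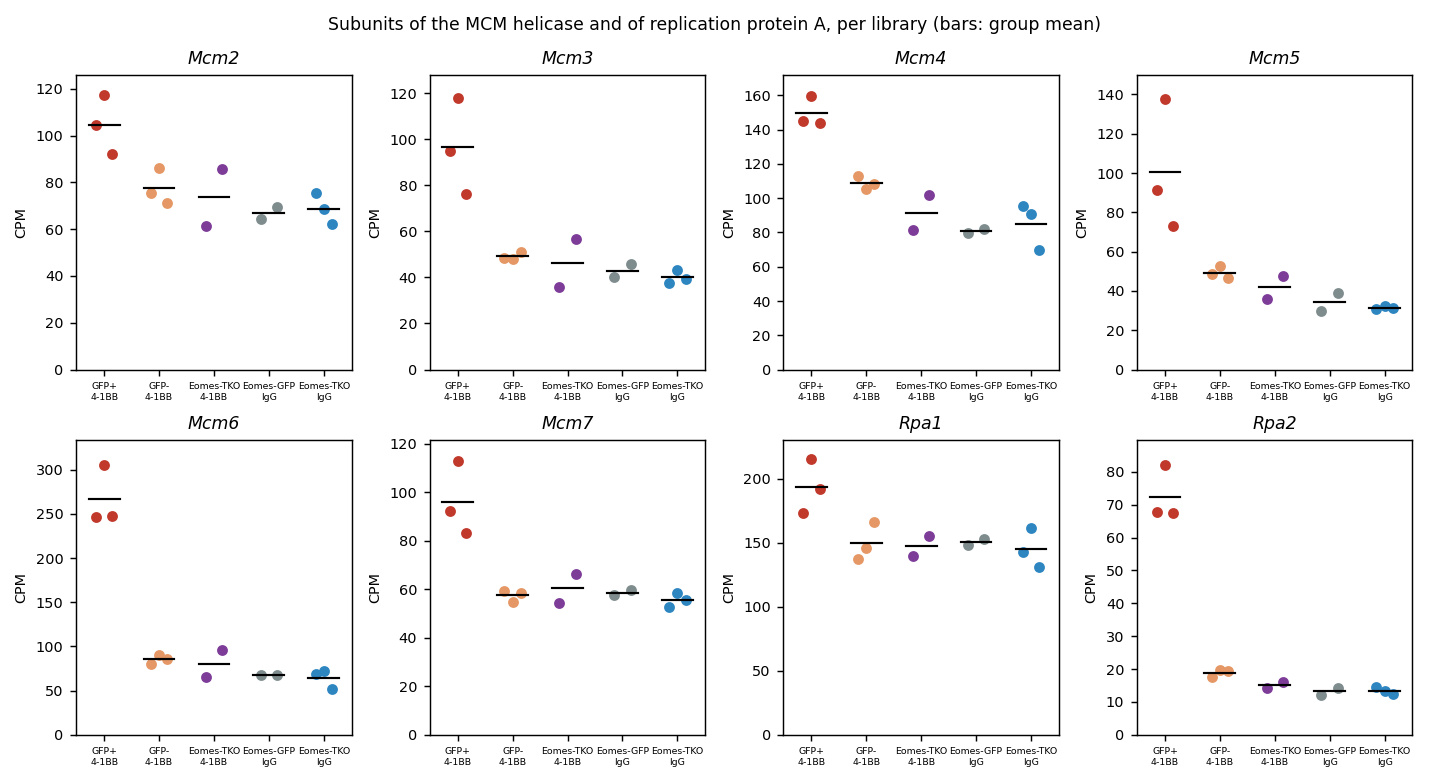
CPM (vertical axis, from 0) of 6 MCM subunits and of 2 subunits of replication protein A in each library (points) with the group mean (bar). Mcm6 and Rpa2 set the GFP+ libraries apart by more than their partner subunits do: Mcm6 was at 247 to 305 CPM against at most 95.5 elsewhere.

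Other genes of the same pathways were taken from lists drawn up beside the roles. Between GFP+ and GFP- cells, 20.7% of all tested genes were called higher and 16.5% lower. Of 59 further replication genes, 30 were higher in GFP+ than in GFP- cells, 4 were lower and 25 did not pass, with a median log2 fold change of 0.39. The largest were Fancd2, a cross-link repair gene (2.06), Rad54l, a recombination motor (1.92), and Ticrr, an origin firing factor (1.82). The 4 lower were Nasp, a histone chaperone (-0.71), Ung, uracil glycosylase (-0.52), Asf1a, a histone chaperone (-0.48), and Mcmbp, a binding partner of MCM (-0.29). Of 19 genes of the E2F and retinoblastoma network, 10 were higher and none was lower, with a median of 0.33. Foxm1, a mitotic transcription factor, led with 1.64, followed by Rbl2, a retinoblastoma relative that holds E2F targets down in resting cells (1.60), and Mybl2 (1.59). Rbl2 stood at 509, 549 and 482 CPM in GFP+ and 171, 172 and 166 in GFP- cells, and at 177 to 216 CPM in the 7 libraries of the other groups. Outside the GFP+ group, the 3 GFP- libraries were the lowest. Of 30 genes of G2 and mitosis, 29 were higher, with a median of 1.70, and Cdk1 (2.14), Aurkb (2.03) and Cenpf (1.82) had the largest fold changes.

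Some genes of other cells and of T cell identity also differed between GFP+ and GFP- cells, in a comparison where 20.7% of all tested genes were called higher. The 8 T cell identity genes summed to 4948 to 5661 CPM in GFP+ and 3577 to 3802 in GFP- libraries, and 5 of the 8 were called higher. Of 8 plasma cell markers, 4 passed the filter and 3 were called higher, with sums of 171 to 186 and 50.0 to 52.6 CPM. Igkc made up 76.1, 82.0 and 79.6 CPM of the GFP+ sums and at most 0.488 CPM in GFP- libraries, while Tnfrsf17 was listed at 0 in all 13 libraries and Sdc1 and Mzb1 were below 0.49 CPM in each. Of 10 myeloid markers, 7 passed the filter and 2 were called higher, with sums of 49.3 to 84.3 and 17.4 to 35.5 CPM. Of 7 B cell markers, 2 passed and 1 was called lower, while the sums, 14.5 to 23.7 and 13.8 to 16.9 CPM, overlapped. Of 2 regulatory T cell markers, Ikzf2 was called higher, at 545, 621 and 541 CPM in GFP+ and 47.9 to 96.7 CPM in the other 10 libraries, and Foxp3 was called lower. Erythroid marker sums were 2.79 to 14.9 CPM in GFP+ and 2.26 to 29.6 in GFP- libraries, with none of 3 called. Sums of 2 CD8 T cell markers were 3.46 to 9.35 CPM in GFP+ and 6.77 to 12.3 in GFP- libraries, which overlapped. For 2 NK cell markers the sums were lower in GFP+ libraries, at 0.393 to 0.554 CPM against 0.813 to 1.95 in GFP- libraries. The part of these genes in the results for S phase genes was not tested.

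Against Eomes-GFP cells from mice given IgG, which were not divided by GFP, treated GFP+ cells had 47 of the 52 genes higher and none lower, and over all genes 18.8% were called higher. The GFP+ libraries are those of the sort comparison, so the 2 sets of values are not independent. Rpa2 (2.45 ± 0.16 (SE, adjusted p = 3.64e-08)), Mcm6 (1.97 ± 0.18 (SE, adjusted p = 8.90e-07)) and Pole (2.12 ± 0.21 (SE, adjusted p = 2.96e-06)) had the smallest p on the list. Rrm1 (1.39), Pola1 (1.85) and Tk1 (3.82) followed, and the largest log2 fold change was 4.01 for Pclaf. The 5 genes that did not pass were Gins3, Gins4, Pole2, Rfc4 and Blm. The median over the 52 genes was 1.69, against 0.00 over all genes. Myeloid marker sums were 9.30 to 9.41 CPM in these IgG libraries, below the 49.3 to 84.3 of the GFP+ libraries. Plasma cell sums were 53.9 to 60.2 against 171 to 186 CPM, and B cell sums 7.54 to 8.52 against 14.5 to 23.7. T cell identity sums were 3343 to 3875 against 4948 to 5661 CPM, and NK cell sums 6.66 to 6.99 against 0.393 to 0.554. The part of these genes in the difference was not tested. Treatment and the sort both separate these groups, and the share of each cannot be told apart in this contrast.

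The treated GFP- cells share those 2 IgG libraries as their control, so the values stand side by side and are not independent. In GFP- cells 4 of 52 genes were higher than in IgG cells and none was lower, where 0.654% of all genes were called higher. They were Clspn (2.07 ± 0.38 (SE, adjusted p = 0.0255)), Rrm2 (1.86 ± 0.33 (SE, adjusted p = 0.0277)), Exo1 (2.00 ± 0.38 (SE, adjusted p = 0.0291)) and Pclaf (2.28 ± 0.43 (SE, adjusted p = 0.0333)). Clspn stood at 34.0, 27.2 and 24.9 CPM in GFP+ cells, 13.7, 9.02 and 9.30 in GFP- cells, 3.12 and 7.93 in treated Eomes-TKO, 2.03 and 2.94 in Eomes-GFP IgG and 1.46, 2.56 and 1.99 in Eomes-TKO IgG. Treated GFP- libraries lay between the GFP+ and the IgG libraries in this gene. Rrm2 stood at 94.2, 124 and 64.6 CPM in GFP+ cells, 33.8, 34.0 and 29.99 in GFP- cells, 14.1 and 29.1 in treated Eomes-TKO, 8.39 and 9.50 in Eomes-GFP IgG and 7.30, 11.0 and 8.90 in Eomes-TKO IgG. In Rrm2 the GFP- libraries were close to each other and the 2 Eomes-GFP IgG libraries were well below them. Exo1 stood at 10.9, 12.6 and 6.66 CPM in GFP+ cells, 4.88, 4.39 and 4.06 in GFP- cells, 3.28 and 4.07 in treated Eomes-TKO, 0.890 and 1.27 in Eomes-GFP IgG and 2.61, 1.78 and 2.13 in Eomes-TKO IgG. The Eomes-GFP IgG libraries were the lowest of the 13 for Exo1. Pclaf stood at 68.2, 87.9 and 53.0 CPM in GFP+ cells, 20.2, 21.6 and 21.2 in GFP- cells, 7.03 and 20.5 in treated Eomes-TKO, 3.31 and 5.19 in Eomes-GFP IgG and 3.65, 7.20 and 5.98 in Eomes-TKO IgG. Its GFP- libraries were nearly equal and were matched by only the second treated Eomes-TKO library.

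These 4 calls were lost when any 1 of the 5 libraries of that comparison was left out, with limma-voom, and in the fit with the pairing of GFP+ and GFP- libraries as a block, each of which left 0 genes called. Other settings called up to 19, and the shares of all genes called under those settings are not given here. Of the 52 genes 48 had a fold change above 0 in GFP- against IgG cells, 31 had an unadjusted p under 0.05 (8.76% of all genes) and for 40 every GFP- library lay above both IgG libraries (14.3% of all genes). The median was 0.52. Myeloid marker sums were 17.4 to 35.5 CPM in GFP- and 9.30 to 9.41 in these IgG libraries. B cell sums were 13.8 to 16.9 and 7.54 to 8.52 CPM, in the same order. Plasma cell sums were 50.0 to 52.6 and 53.9 to 60.2 CPM, and NK cell sums 0.813 to 1.95 and 6.66 to 6.99. The part of these genes was not tested. Of the pathway lists, 19 of 30 G2 and mitosis genes were called higher with a median of 1.85, 1 of 59 further replication genes was, the origin firing subunit Dbf4 (0.66), and none of 19 network genes was.

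In Eomes-TKO cells the effect of the 4-1BB antibody against IgG did not pass the test for any of the 52 genes, where 0.0427% of all genes were called in either direction. The smallest p belonged to Chaf1a (1.30 ± 0.31, adjusted p = 0.270), Tk1 (1.63 ± 0.40, adjusted p = 0.321) and Clspn (1.49 ± 0.38, adjusted p = 0.346). For each of these 3 both treated libraries were above all 3 IgG libraries. Fold changes were above 0 for 47 of the 52 genes with a median of 0.41, 18 had an unadjusted p under 0.05 (3.6% of all genes), and 21 had treated libraries that lay wholly above the IgG libraries (7.04% of all genes). DESeq2 called 4 of the 52, edgeR without a filter on low counts called 6, limma-voom called 0, and edgeR without the first treated Eomes-TKO library called 3. The shares of all genes called under these other settings are not given here. Treated Eomes-TKO replicate 2 was above replicate 1 for 45 of the 52 genes, so the group mean stands for 2 unlike libraries. Among G2 and mitosis genes 6 of 30 were called higher in the same contrast, with a median of 1.84. Igkc stood at 7.34 and 15.6 CPM in the treated and at most 1.67 CPM in the IgG libraries of this line. Myeloid marker sums were at 17.5 to 18.8 and 10.1 to 13.8 CPM, and B cell sums at 8.28 to 15.3 and 6.64 to 8.24. NK cell sums were at 3.75 to 4.38 and 6.57 to 13.0 CPM, with no test of the part of these genes.

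Under IgG, no gene of the 52 passed the test between Eomes-TKO and Eomes-GFP cells (0.0142% of all genes did). Of the 52, 1 had an unadjusted p under 0.05 (3.06% of all genes), DESeq2 and limma-voom called 0, and 23 fold changes were above 0 and 29 below, with a median of -0.05. The smallest p belonged to Exo1 (0.98 ± 0.40), Chek1 (0.75 ± 0.35) and Chaf1a (-0.67 ± 0.32), each with an adjusted p of 1.

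Treated Eomes-TKO cells were compared with both fractions of treated Eomes-GFP mice, which share the Eomes-TKO libraries. Against GFP+ cells, 44 of the 52 genes were lower in Eomes-TKO and none was higher, and over all genes 18.8% were called lower. The smallest p belonged to Rpa2 (-2.26 ± 0.16 (SE, adjusted p = 7.08e-08)), Mcm6 (-1.73 ± 0.17 (SE, adjusted p = 3.03e-06)) and Dtl (-1.46 ± 0.17 (SE, adjusted p = 1.54e-05)), followed by Pola1 (-1.39), Rrm1 (-1.04) and Pole (-1.50). The 8 that did not pass were the 4 GINS genes, Pola2, Pole2, Rfc4 and Blm, and the median over the 52 was -1.24. Against GFP- cells none of the 52 passed (0.0427% of all genes were called in either direction), with 0 by DESeq2 and limma-voom. The smallest p belonged to Pcna (-0.38 ± 0.13, adjusted p = 0.536), Clspn (-0.90 ± 0.35) and Orc6 (-0.55 ± 0.22). An unadjusted p under 0.05 was found for 6 of the 52 (6.97% of all genes), 42 fold changes were below 0 with a median of -0.23, and for 14 both Eomes-TKO libraries lay below all GFP- libraries (10.8% of all genes). The Eomes-TKO cells were not divided by GFP, while the fractions were. Of the 8 T cell identity genes 5 were also lower in treated Eomes-TKO than in GFP+ cells. The myeloid sums were 17.5 to 18.8 against 49.3 to 84.3 CPM, and the plasma cell sums 62.9 to 80.1 against 171 to 186. NK cell sums were 3.75 to 4.38 against 0.393 to 0.554 CPM, and CD8 T cell sums 9.53 to 11.4 against 3.46 to 9.35. The part of these genes was not tested.

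**Figure D5:**
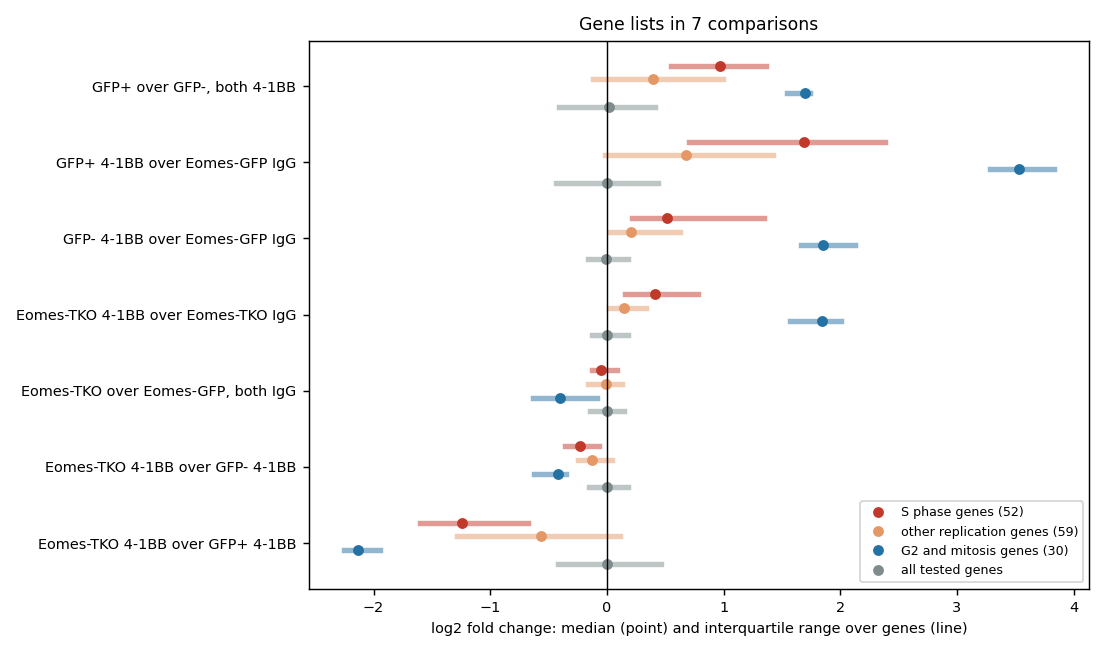
Median log2 fold change (point) and interquartile range over genes (line) of the 52 S phase genes, 59 further replication genes, 30 G2 and mitosis genes and all tested genes (horizontal axis) in 7 comparisons (vertical axis). The 52 genes sit at 0.97, 1.69, 0.52, 0.41, -0.05, -0.23 and -1.24 from top to bottom; several comparisons share libraries.

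The effect of the antibody in Eomes-TKO cells was then set against that of treated GFP- over IgG cells in a single contrast, in which the GFP- arm is sorted and its control is not. None of the 52 genes differed, and none of all 14059 did (0%). At an unadjusted p under 0.05 there were 2 of the 52, Chek1 (-1.27 ± 0.48) and Exo1 (-1.24 ± 0.52), against 2.96% of all genes, and DESeq2 and limma-voom called 0 of the 52. The next smallest p was that of Cdt1 (-0.37 ± 0.20). The median over the 52 was -0.22, with 38 below 0.

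Within groups, the same library was often the highest across the 52 genes. Replicate 2 of the GFP+ cells had the highest of the 3 values for 39 of the 52 genes and replicate 3 the lowest for 40. Over all tested genes replicate 2 was highest for 42.9%, and the share with replicate 3 lowest is not given here. In Eomes-GFP IgG, replicate 2 was above replicate 1 for 40 of 52 (47.7% of all genes), and in treated Eomes-TKO for 45 of 52 (51.0% of all genes). In Eomes-TKO IgG, replicate 2 was highest for 31 of 52 (33.9% of all genes). Genes of G2 and mitosis followed a steeper course across the groups: their mean log2 CPM minus that of the 52 genes was 0.46, 0.45 and 0.38 in GFP+ cells, -0.20, -0.13 and -0.23 in GFP- cells, -0.77 and -0.24 in treated Eomes-TKO cells, -1.42 and -1.09 in Eomes-GFP cells given IgG and -1.63, -1.52 and -1.75 in Eomes-TKO cells given IgG. The difference was positive only in the 3 GFP+ libraries and lowest in the 3 Eomes-TKO IgG libraries. Neither mean is per gene length, so only its change from library to library can be read.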

How the data were processed

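RNA was measured in 13 libraries, from 11 ng of total RNA each after ribosomal depletion, per the labels' protocols. The values the authors deposited are estimated counts per gene, of which 6.25% to 7.33% per library are not whole; the submitters' processing notes name build GRCm39, Salmon 1.5.2, STAR 2.7.10a, cutadapt 3.4 and Trim Galore 0.6.7, and the annotation and strand setting are not given in the sources used here. Of 47 library columns in the table, 34 match no sample used here and were left out of every step. Estimated counts were rounded, and genes were kept by edgeR's filterByExpr (14059 of 56748). All 13 libraries entered 1 edgeR 4.0.16 model (R 4.3.3) with a mean for each of 5 groups, TMM normalization and robust quasi-likelihood tests, adjusted by Benjamini-Hochberg over all tested genes at 0.05. Standard errors were computed from the fold change and its F statistic. Means of log2 CPM used a prior count of 2. The fit was tested on simulated data.

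The 52 genes, their roles, the other lists and the tests were chosen with earlier results of these data known. All 52 may be named. Values in every library are given for the 2 genes of each role with the smallest adjusted p between GFP+ and GFP- cells. They are also given for the genes called in other comparisons (at most 6). Where none was called, the 3 genes with the smallest p are named, and for Orc6, Chek1 and Cdt1 among them only fold changes are given. Pcna, Rbl2 and a few levels beside them were added after their values were seen. Replicates of a group differed beyond sampling noise (chi-square per degree of freedom 7.74 to 29.2). Library names in the labels pair each GFP+ with the GFP- library of the same number. The deviations of these pairs from their group means correlated at 0.32, 0.11 and 0.06 across genes, and those of unmatched libraries at -0.25 to 0.15. Across the 52 genes the values were 0.37, -0.15 and 0.06 for the pairs and -0.39 to 0.25 for unmatched libraries. A fit with the pair as a block was an alternative. Others were DESeq2 1.42.0, limma 3.58.1 (voom), other scalings and filters, the compared groups alone, and each library left out in turn. Intervals, floors and standard errors cover counting error and the spread between these libraries only.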

Additional observations from a re-analysis of the deposited data

How the results depend on the processing

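Of 55 results for named genes none reversed under the alternatives run; the median of the 52 genes between Eomes-TKO and Eomes-GFP IgG cells, which is near 0, ran from -0.08 to 0.06 with 1 library left out. Between GFP+ and GFP- cells the number of the 52 genes called higher ran from 37 to 41 over 10 other settings and from 33 to 39 with 1 library left out, and the median log2 fold change with 1 library left out from 0.78 (without GFP+ replicate 2) to 1.05. Against Eomes-GFP IgG cells, GFP+ cells had 38 to 44 called with 1 library left out and a median from 1.502 (without GFP+ replicate 2) to 1.795. Treated Eomes-TKO cells had 30 to 41 genes lower than GFP+ cells with 1 library left out. For GFP- against IgG cells, 4 genes in the test reported became 18 without a filter on low counts, 13 with DESeq2, 0 with limma-voom, 19 with the compared groups alone, 0 with the replicate block of paired GFP+ and GFP- libraries, 12 with a replicate block of label numbers and 0 without any 1 of the 5 libraries, while the median with 1 library left out ran from 0.53 to 0.68; the cause was not tested. For the antibody in Eomes-TKO cells, 0 genes became 6 without a filter and 4 with DESeq2, and 0 to 3 with 1 library left out (3 without treated replicate 1). The block of pairs left 41 genes called between GFP+ and GFP- cells. Shares of all genes called under these settings are not given here. From the counts printed here alone, a general rise in calls cannot be told apart from a rise in the 52 genes. Upper-quartile scaling moved the median of all genes to -0.12 between GFP+ and GFP- cells, -0.14 for GFP+ against IgG and 0.16 for Eomes-TKO against GFP+, and the 52 genes relative to it by less than 0.01; the share of higher calls went from 54.9% to 41.9% and from 45.6% to 60.8% in the latter pair. Pole2 alone was negative for GFP+ against IgG under that scaling and with library size only. Where a single library remained in a group, it was assumed to vary like the other groups. Depth limits Orc1, Gins1 and Gins2 most.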
